A study of Mus musculus with 6 samples.

Results

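The nuclear genes for subunits of mitochondrial complex I were examined in whole brown adipose tissue of C57BL/6 mice. The list named 36 genes, and all 36 were found among the 45320 Ensembl identifiers of each deposited table. All 36 passed the filter on low values, a mean of at least 1 FPKM (fragments scaled to transcript length and to library depth). From 4 weeks of age mice ate a diet high in fat and sugar, for 4 weeks. One group then continued on it alone (untreated 13, 14 and 15), and the other on the same diet with RO5508887, a drug candidate that inhibits the protease BACE1 (treated 17, 33 and 35). The tables of samples 33 and 35 held the same value for all 45320 identifiers and were counted as 1 library, treated 33/35, which left 3 untreated and 2 treated libraries. Strain, tissue and diet were common to both groups. Whether each sample was 1 animal or a pool is not stated, so every p-value reflects the scatter of these samples alone, which may be technical.

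Complex I, NADH:ubiquinone oxidoreductase, is the entry point of the respiratory chain for electrons from NADH. Its matrix arm holds the N module, which binds NADH, and the Q module, which reduces ubiquinone, and its membrane arm pumps protons. In brown fat, UCP1 lets those protons flow back without making ATP, so that fuel oxidation yields heat. The nucleus encodes most subunits, and the mitochondrial genome encodes the hydrophobic core of the membrane arm. NDUFA4, which carries a complex I name, is now counted as a subunit of cytochrome oxidase, and NDUFAB1 is the mitochondrial acyl carrier protein, which also serves fatty acid synthesis.

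The RefSeq promoter windows of the 36 genes (GRCm38.p6, 300 bases, of which 50 lie after the gene start) were searched for 4 strings on both strands. A window was given for 33 of the 36 genes, 35 windows in all, since Ndufa5 and Ndufa7 have overlapping alternative starts. The NRF1 string, GCGC and TGCGC with any 1 base (N) between them, bound by nuclear respiratory factor 1, was found in 7 of 33 member genes (21.2%) and in 1402 of 27025 genes with such windows (5.19%). The YY1 string AAGATGGC was also found in 7 of 33 member genes (21.2%), against 862 of 27025 genes (3.19%). The ETS string CCGGAAG, shared by GABPA, was found in 4 of 33 (12.1%, against 9.93% of genes), and the ERR string AAGGTCA in 3 of 33 (9.09%, against 5.38%). No member window held overlapping matches of different strings. The genes compared with were not matched to the members in base composition or level. A match is a run of letters and does not show binding. For each of the 7 genes 1 NRF1 match is shown with the matched letters in capitals (Ndufb4 holds 3, of which the farthest upstream is given), in a stretch of 30 bases read 5′ to 3′ on the gene's strand. The matches shown for Ndufa5, Ndufb4 and Ndufs5 fit the string on the antisense strand, and that of Ndufa11 fits it on either strand.
Ndufa11 (chr17:56717692-56717721, plus strand): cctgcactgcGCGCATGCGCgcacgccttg
Ndufa5 (chr6:24527697-24527726, minus strand): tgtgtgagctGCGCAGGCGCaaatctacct
Ndufa6 (chr15:82354249-82354278, minus strand): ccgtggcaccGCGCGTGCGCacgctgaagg
Ndufa8 (chr2:36049349-36049378, minus strand): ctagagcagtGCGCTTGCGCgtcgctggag
Ndufb4 (chr16:37654540-37654569, minus strand): gagaagcagtGCGCACGCGCagaatacgcg
Ndufs5 (chr4:123718265-123718294, minus strand): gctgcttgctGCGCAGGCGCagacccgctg
Ndufs6 (chr13:73328479-73328508, minus strand): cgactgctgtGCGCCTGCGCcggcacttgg

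All 7 YY1 matches lay on the sense strand, between 23 and 39 bases after the gene start, and the ATG inside each was the annotated translation start in GENCODE M21. They are shown in the same way, because here a promoter-like string and the start of the protein are the same letters.
Ndufa3 (chr7:3617384-3617413, plus strand): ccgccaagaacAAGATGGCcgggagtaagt
Ndufa9 (chr6:126849097-126849126, minus strand): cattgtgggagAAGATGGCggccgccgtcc
Ndufb8 (chr19:44555393-44555422, minus strand): tgaaccgcggagaaggtgAAGATGGCtgcc
Ndufc1 (chr3:51408915-51408944, minus strand): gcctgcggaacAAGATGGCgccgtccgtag
Ndufs4 (chr13:114388045-114388074, minus strand): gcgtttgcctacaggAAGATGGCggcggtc
Ndufs6 (chr13:73328433-73328462, minus strand): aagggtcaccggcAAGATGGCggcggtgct
Ndufs7 (chr10:80249462-80249491, plus strand): aggccgaggccAAGATGGCggcgctggcgg

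The 250 bases before the start of Ndufb6 and Ndufb2 are shown because these genes lay near the opposite ends of the range among untreated libraries, as described further on, and no annotated exon falls in either stretch. Capitals mark an ETS match, on the antisense strand, in Ndufb6 and an ERR string in Ndufb2.
Ndufb6 (chr4:40279422-40279671, minus strand): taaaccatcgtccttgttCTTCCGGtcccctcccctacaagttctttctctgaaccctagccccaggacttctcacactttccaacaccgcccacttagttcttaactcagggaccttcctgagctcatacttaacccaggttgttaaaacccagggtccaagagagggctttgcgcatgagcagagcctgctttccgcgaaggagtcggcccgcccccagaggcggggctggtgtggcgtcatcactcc
Ndufb2 (chr6:39592315-39592564, plus strand): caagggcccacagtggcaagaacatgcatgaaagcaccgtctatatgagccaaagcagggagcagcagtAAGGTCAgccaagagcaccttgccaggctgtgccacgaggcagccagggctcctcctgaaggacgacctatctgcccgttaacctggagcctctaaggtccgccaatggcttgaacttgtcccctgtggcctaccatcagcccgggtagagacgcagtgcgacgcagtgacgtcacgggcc

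The median log2 difference of untreated 14 from untreated 13 and 15 was -0.60 for the 7 genes with the NRF1 string and -0.69 for the 26 without. For the YY1 string it was -0.56 with and -0.69 without, for the ETS string -0.94 for 4 genes with and -0.60 without, and for the ERR string -0.71 for 3 genes with and -0.66 without. These are descriptions of a few genes, with no test.

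Complex I transcripts were abundant. The median member measured 384 FPKM in untreated 13, 403 FPKM in untreated 15, 369 FPKM in treated 33/35, 331 FPKM in treated 17 and 241 FPKM in untreated 14. Together the 36 genes took 2.94% and 3.19% of the summed FPKM of nuclear genes in untreated 13 and 15, 2.96% in treated 33/35, 2.72% in treated 17 and 1.99% in untreated 14. Ndufa4 (chr6:11900292-11907497) was the most abundant, with FPKM of 1194, 777 and 1257 without the drug (libraries 13, 14 and 15, the order used throughout). With the drug the values were 1039.7 FPKM (treated 17) and 1204 FPKM (treated 33/35). The treated values lay above untreated 14 and near or below the other untreated libraries. Ndufb8 and Ndufb9, both of the distal membrane arm, followed. Ndufb8 measured 808, 419 and 914 FPKM untreated and 711 and 836 FPKM treated, and Ndufb9 measured 787, 542 and 832.5 FPKM untreated and 718 and 753 FPKM treated.

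At the other end, Ndufa11 (chr17:56717767-56722141), a membrane arm subunit, measured 39.1, 34.5 and 41.2 FPKM untreated and 39.5 and 34.4 FPKM treated. It was the only member below 90 FPKM in any library. Ndufs4, a matrix arm subunit whose loss causes Leigh syndrome, measured 134, 91.3 and 137 FPKM untreated and 115 and 114 FPKM treated. Ndufa13, also known as GRIM-19, measured 147, 134 and 149 FPKM untreated and 139.7 and 152 FPKM treated. The order of the 36 levels was nearly the same in untreated 13, untreated 15 and the treated libraries, with Spearman correlations across the 36 genes from 0.988 to 0.994. With untreated 14 the correlations were 0.829 to 0.859. The genes are not independent replicates, and these correlations describe the libraries.

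**Figure D1:**
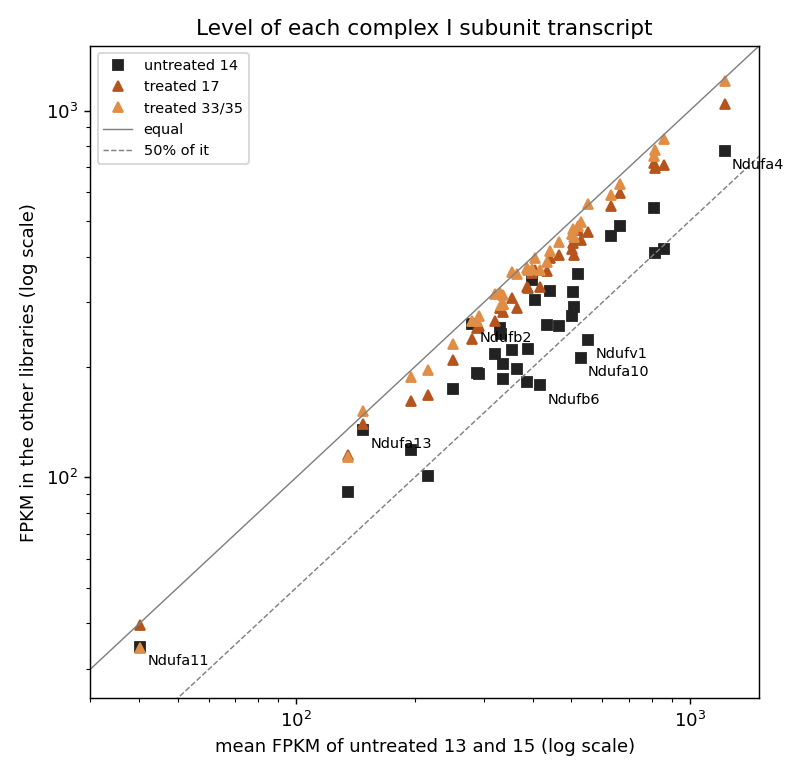
Each point is 1 of the 36 genes, with its mean FPKM in untreated 13 and 15 on the horizontal axis and its FPKM in untreated 14 (squares), treated 17 or treated 33/35 (triangles) on the vertical axis, both on log scales. The solid line marks equal values and the dashed line 50% of it. On this FPKM scale the squares lie below the solid line. Ndufa10, Ndufb6 and Ndufv1 (40.1% to 42.9%) are the farthest under the dashed line, and most triangles lie closer to the solid line. After centring on adipocyte genes, which shifts every gene of a library alike, 33 of 36 members were higher in untreated 14.

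Other copies could share reads with a few members. The processed pseudogene Ndufb4c was listed at 48.1 to 79.1 FPKM, beside 119 to 198 FPKM for Ndufb4, so the values of Ndufb4 are uncertain. Ndufab1-ps measured 2.85 to 6.39 FPKM and Ndufa11b was listed at 0 in all 5 libraries.

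Within the untreated group, complex I transcripts were lower in untreated 14. All 36 members were lower there than the mean of untreated 13 and 15 on the log2(FPKM + 0.5) scale, with a median difference of -0.66, whereas 33 of 36 were higher after each library was centred on adipocyte identity genes (median 0.45) and 36 of 36 after centring on brown adipocyte markers (median 2.27). The median over the 13527 genes tested was -0.077, and 54.2% of them were lower. Centring shifts every gene of a library alike, and moved this median to 1.03 and 2.85. The share of all genes higher in untreated 14 rose with it from 45.5% to 89.7% and 99.5%. Without centring, the median over the 2285 genes at or above the lowest member's mean was -0.29. In FPKM, 34 of 36 members had their lowest value of the 5 libraries in untreated 14, where 43.6% of all genes did. The exceptions were Ndufa11, lowest in treated 33/35, and Ndufb2, lowest in treated 17. The difference reached 0.5 on the log2 scale in 26 members (27.6% of all genes) and 1 in 6 members (12.1% of all genes). This sets 1 library against 2 of the same group and has no test.

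The decrease was uneven. Ndufa10 (chr1:92439010-92473860), a membrane arm subunit, measured 519 and 538 FPKM in untreated 13 and 15 and 212 FPKM in untreated 14, which is 40.1% of their mean. Ndufb6 (chr4:40270591-40279421) measured 415 and 420.3 FPKM against 178 FPKM, or 42.7%. Ndufv1 (chr19:4007384-4012806), the core subunit that binds NADH and the flavin, measured 521 and 584 FPKM against 237 FPKM, or 42.9%. These members were below 50% of the level in the other untreated libraries, as were Ndufs8, Ndufs1, Ndufb8 and, at 49.985%, Ndufab1. Ndufb2 (chr6:39592574-39603382) was at 93.6%, with 272 and 288 FPKM against 262 FPKM. Ndufa13 (chr8:69894180-69902558) was at 90.7% and Ndufa5 (chr6:24518666-24528013), of the Q module, at 87.1%, with 387 and 407 FPKM against 346 FPKM. With the drug, in treated 17 and then treated 33/35, Ndufa10 measured 443 and 496 FPKM, Ndufb6 331 and 369 FPKM, and Ndufv1 466 and 555 FPKM. Ndufb2 measured 238 and 268 FPKM and Ndufa5 361 and 370.3 FPKM. Of these only Ndufb2 had a treated value below untreated 14.

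**Figure D2:**
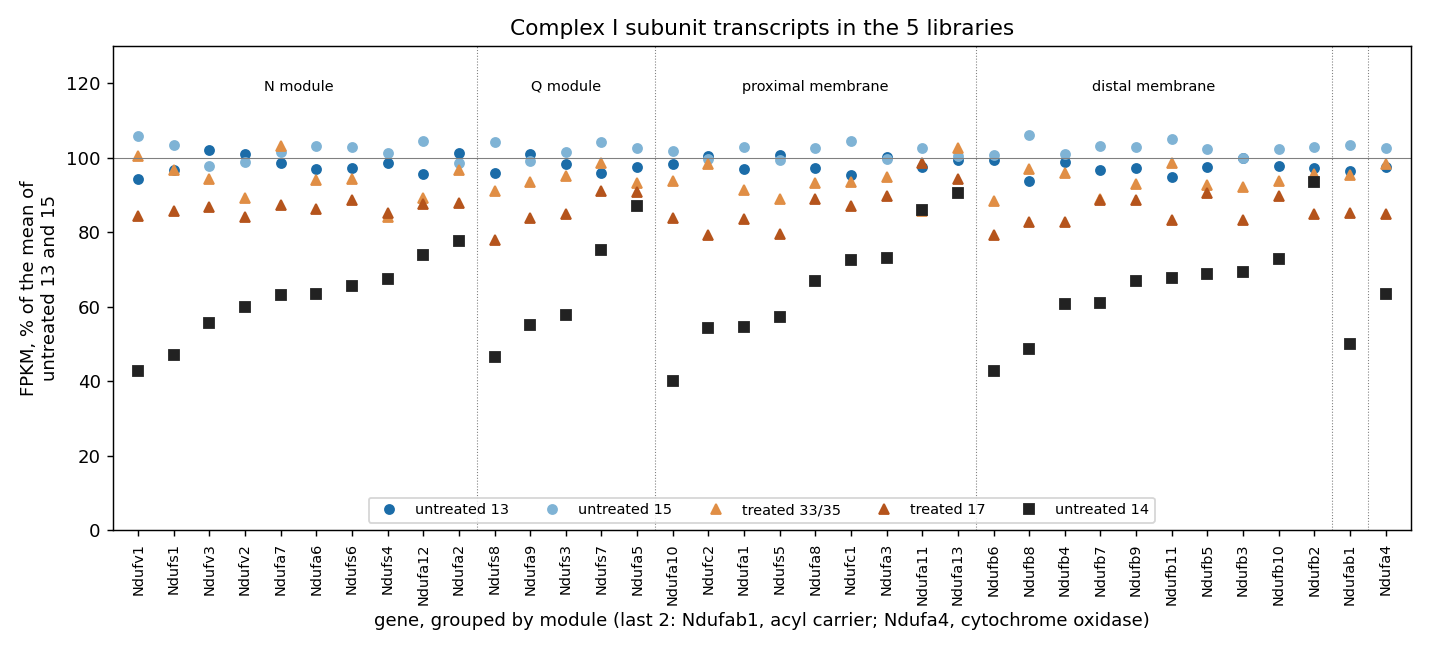
The FPKM of each of the 36 genes is drawn as a percent of its mean in untreated 13 and 15, with 1 point per library and the genes grouped by module. On this FPKM scale untreated 14 (squares) runs from 40.1% for Ndufa10 to 93.6% for Ndufb2. Treated 17 and treated 33/35 (triangles) lie mostly between it and untreated 13 and 15. After centring on adipocyte genes, which shifts every gene of a library alike, 33 of 36 members were higher in untreated 14.

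The core subunits of the matrix arm, which carry the flavin and the iron-sulfur clusters, lay in untreated 14 between 42.9% (Ndufv1) and 75.3% (Ndufs7) of the level in untreated 13 and 15. Ndufs1, the largest subunit, measured 373, 181 and 399 FPKM untreated and 331 and 373 FPKM treated. Ndufv2 measured 439, 260.1 and 429 FPKM untreated and 365 and 387 FPKM treated. Ndufs3, a Q module core subunit, measured 382, 224 and 394 FPKM untreated and 329 and 369 FPKM treated. In each of these, untreated 14 was the lowest library and treated 17 the next. Ndufs8, which binds iron-sulfur clusters near the quinone site, measured 207, 101 and 225 FPKM untreated and 168 and 197 FPKM treated. Ndufs7, its neighbour at that site, measured 387, 304 and 421 FPKM untreated and 368 and 397 FPKM treated. Ndufs8 was thus at 46.6% and Ndufs7 at 75.3% of the level in untreated 13 and 15.

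The modules had close medians. The log2 difference of untreated 14 from untreated 13 and 15 had a median of -0.66 over the 10 N module genes, -0.79 over 5 Q module genes, -0.58 over 9 genes of the proximal membrane arm and -0.57 over 10 of the distal membrane arm. Within modules the values ranged from -1.22 to -0.36, from -1.10 to -0.20, from -1.32 to -0.14 and from -1.23 to -0.095, so members of 1 module differed more than the medians of the modules. Ndufa4 had -0.66, and Ndufab1 measured 789, 408 and 846 FPKM untreated and 696 and 780.1 FPKM treated. Transcript length and base composition were weakly related to it. Across the 36 genes the Spearman correlation of this difference with the length of the longest coding transcript in GENCODE was -0.15, and with its GC content 0.13.

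Subunits differed little from each other between untreated 13 and 15. Between untreated 15 and untreated 13 the log2 difference had a median of 0.073 and an SD over the 36 genes of 0.059, where all genes tested had an SD of 0.55. Untreated 15 was the higher in 28 of 36 members, against 39.6% of all genes. Measured from each gene's mean over the 5 libraries, the SD over members was 0.078 in untreated 13, 0.079 in untreated 15, 0.048 in treated 17 and 0.089 in treated 33/35, and 0.24 in untreated 14. Over all genes tested these SDs were 0.39 to 0.88. With untreated 14 left out of the gene means as well, the members' SDs were 0.041, 0.035, 0.054 and 0.052 in untreated 13, untreated 15, treated 17 and treated 33/35, and their median fell from 0.079 over 5 libraries to 0.046 over 4. The 2285 genes at or above the lowest member's mean had an SD of 0.68 between untreated 15 and untreated 13.

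The libraries differed in skeletal muscle and brown fat transcripts as well. The summed FPKM of both lists followed the library order of the summed complex I FPKM, reversed for muscle. As a share of nuclear FPKM the order was not fully shared, since complex I took 2.96% in treated 33/35 and 2.94% in untreated 13. The 30 skeletal muscle markers summed to 0.0319% and 0.0302% of the summed nuclear FPKM in untreated 13 and 15, 8.32% in untreated 14, 3.35% in treated 17 and 1.44% in treated 33/35. None of the 30 was listed at 0, and for each the descending order began with untreated 14, treated 17 and treated 33/35. Ckm, the muscle creatine kinase, measured 2.25, 2733 and 1.46 FPKM untreated and 1262 and 531 FPKM treated. The 16 brown adipocyte markers summed to 1.28% and 1.42% in untreated 13 and 15, 0.438% in untreated 14, 1.01% in treated 17 and 1.17% in treated 33/35. Of the 16, 14 were lowest in untreated 14 and 8 followed the order untreated 14, treated 17, treated 33/35 and then both of untreated 13 and 15. Zic1 was higher in untreated 14 by 0.44 on the log2 scale. Ucp1, the defining gene of the labelled tissue, measured 1837, 227 and 1912 FPKM untreated and 1119 and 1321 FPKM treated. In bulk tissue, fewer cells of a type and less RNA per cell cannot be told apart.

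Among the complex I genes, 25 of 36 rose in FPKM in the order untreated 14, treated 17, treated 33/35 and then both of untreated 13 and 15, an order that 10.8% of all genes followed. Treated 33/35 was above treated 17 in 34 of 36. The exceptions were Ndufa11 and Ndufs4. All genes tested leaned the same way, with median log2 differences from untreated 13 and 15 of -0.031 in treated 17 and 0.058 in treated 33/35. For the members these medians were -0.23 and -0.089. Each treated library can be placed on the way from the mean of untreated 13 and 15 (0%) to untreated 14 (100%). For the 36 members the median place of treated 17 was 37.1% (quartiles 33.4% and 45.7%), and the summed muscle markers stood at 40.6% on the same scale. For treated 33/35 the members' median was 16.5% (quartiles 8.38% and 24.4%) and the muscle markers stood at 17.6%. Members with a small difference had unstable places, from 10.9% for Ndufa11 to 234% for Ndufb2 in treated 17. The part of muscle or brown fat content in these differences was not tested.

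In untreated 14 the complex I genes stood nearer to the other untreated libraries than brown fat markers did. The median log2 difference from untreated 13 and 15 was -2.79 for brown adipocyte markers and -1.23 for 15 adipocyte identity genes, against -0.66 for the 36 members. Other respiratory chain lists lay on either side of the members. Their median was -0.97 for 4 complex II genes, -0.85 for 9 complex III genes and -0.81 for 9 ubiquitous complex IV genes. Cox7a1 and Cox8b, complex IV genes counted with the brown adipocyte markers instead, had -1.09 and -0.92. The 16 complex I assembly factors had -0.64 and 14 ATP synthase genes -0.47. The 7 mitochondrially encoded subunits had -0.40. All of these lists were also below untreated 13 and 15 in treated 17 and, by less, in treated 33/35. Among markers of other cell types, the median difference in untreated 14 was 0.53 for macrophages, 0.96 for fibroblasts, -0.31 for endothelial cells and -1.01 for red blood cells. Untreated 15 itself differed from untreated 13 by -0.57, -1.36, 0.040 and -1.55 on these lists, so these values do not set untreated 14 apart for macrophages, fibroblasts or red blood cells.

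**Figure D3:**
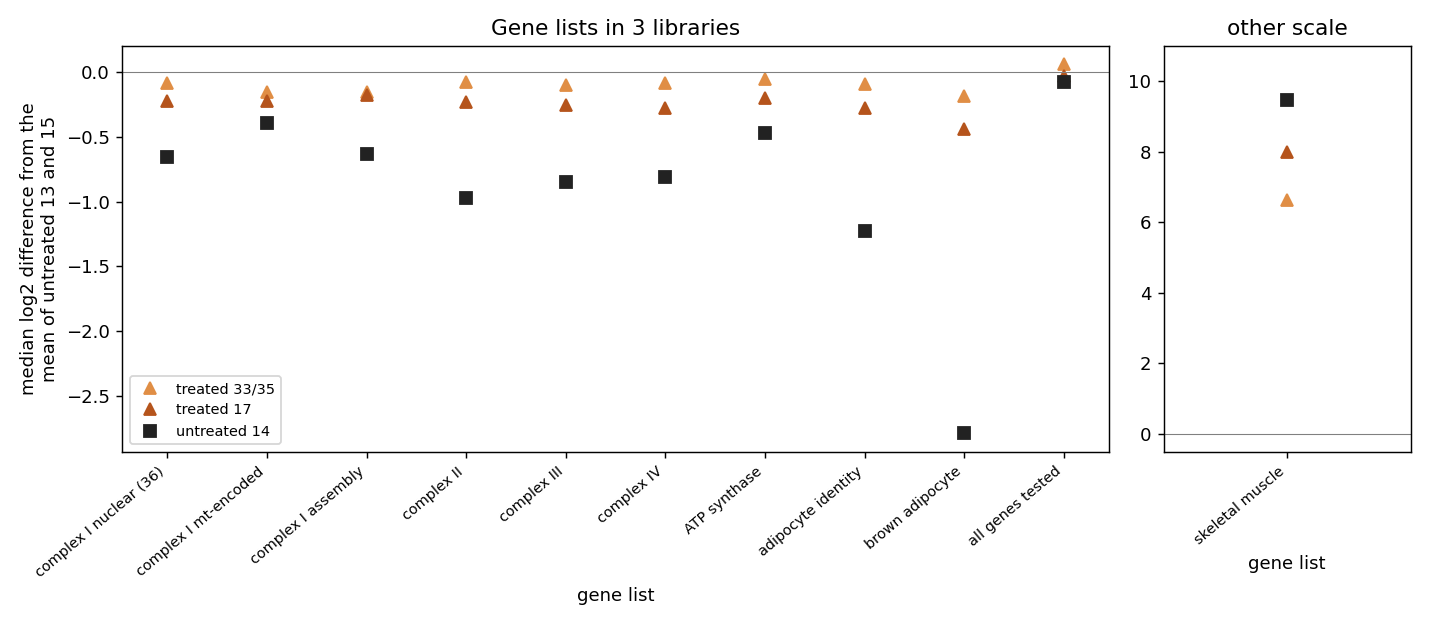
For each gene list on the horizontal axis, points give the median log2 difference of untreated 14, treated 17 and treated 33/35 from the mean of untreated 13 and 15, with skeletal muscle on a separate vertical scale. Untreated 14 has -0.66 for the complex I genes and -2.79 for brown adipocyte markers on the FPKM scale. Centring libraries on adipocyte identity shifts every gene of a library alike. It turns the complex I value to 0.45 and that of all genes tested from -0.077 to 1.03.

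The drug comparison asks what BACE1 inhibition does to brown fat of mice on this diet. No complex I gene on the list passed the test. By limma on log2(FPKM + 0.5), with Benjamini-Hochberg adjustment over 13527 genes and a threshold of 0.05, 0 of 36 members passed, and 6 of all genes did (0.0444%). At an unadjusted p under 0.05 the counts were 0 of 36 and 125 of all genes (0.924%), and 0 of 36 also passed when limma was run without the variance trend. The smallest adjusted p of a member was 1. In 0 of 36 members did both treated libraries lie above, or both below, all untreated ones, against 8.68% of all genes.

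Of the 36 members, 30 had a higher mean log2 value in the treated libraries and 6 a lower one, whereas 33 of 36 were lower after centring on adipocyte identity, a shift common to all genes after which 75.8% of them were lower. Without that shift 64.3% of all genes had higher means. The median log2 fold change was 0.063, against 0.061 over all genes tested. It ran from -0.12 to 0.29, and in all 36 members the standard error was larger than the fold change. Ndufv1 had the highest value, with 448 ± 185 FPKM (SD, n = 3) untreated and 511 ± 63.0 FPKM (SD, n = 2) treated, so that its log2 fold change was 0.29 with an SE of 0.46 (adjusted p = 1 by limma). Ndufa10 had 0.27 (SE 0.48) and Ndufs1 0.23 (SE 0.41). The lowest were Ndufb2 at -0.12 (SE 0.17), Ndufa5 at -0.053 (SE 0.17) and Ndufs4 at -0.052 (SE 0.24), each with limma adjusted p = 1. The genes with the highest fold changes were among those lowest in untreated 14, which belongs to the untreated group.

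Without untreated 14, all 36 members had lower means with the drug, as did 48.3% of all genes, and the median log2 fold change was -0.15, where the median of all genes was 0.0092. In 27 of 36 members both treated libraries then lay below both remaining untreated ones, against 21.1% of all genes. Still 0 of 36 passed as lower, with 9 of 13368 genes (0.0673%) passing, and the smallest limma adjusted p of a member was 0.377, for Ndufs4. Both untreated libraries left in it were low in muscle transcripts and both treated ones were not, so the drug and tissue content cannot be told apart. Centring on adipocyte identity genes, which moved the median of all genes from 0.061 to -0.15, gave the members -0.15 as well. Centring on brown adipocyte markers moved all genes to -0.33 and the members to -0.33.

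**Figure D4:**
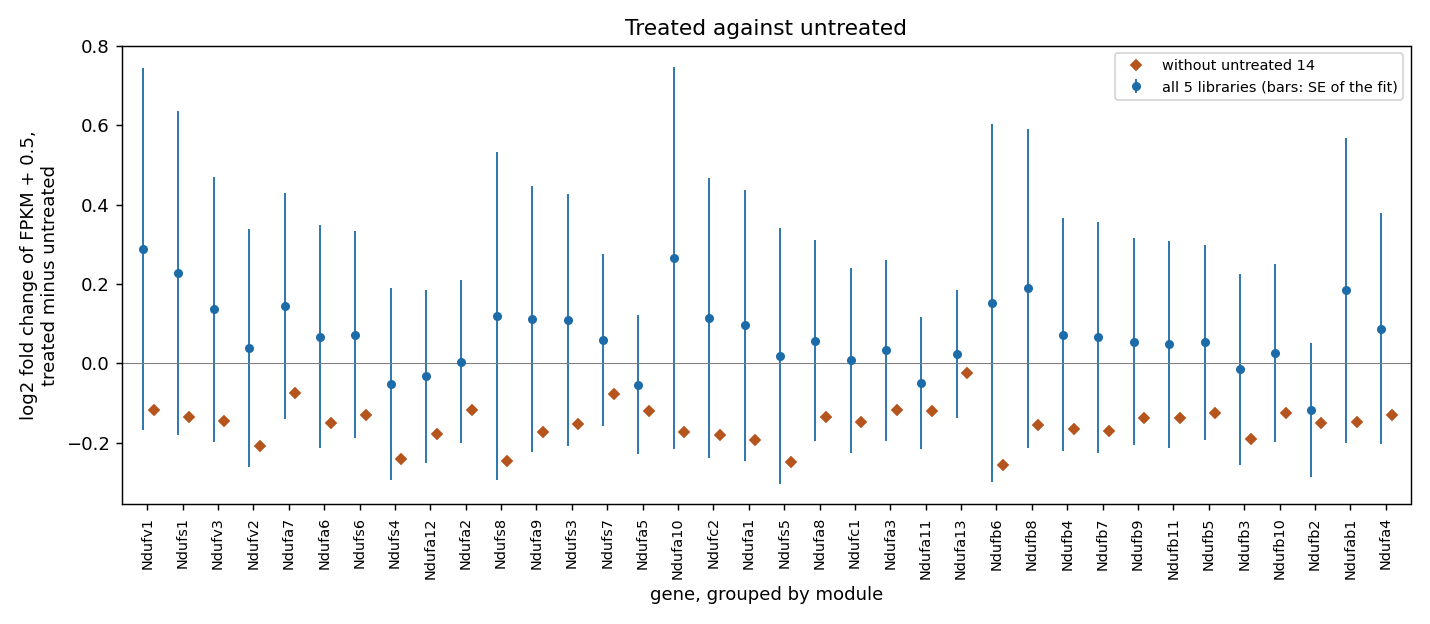
Log2 fold changes of the 36 genes, treated minus untreated, are drawn from all 5 libraries (circles, bars give the standard error of the fit) and without untreated 14 (diamonds). The circles lie between -0.12 and 0.29 with bars that all reach 0, and the diamonds lie below 0 for all 36 genes.

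A muscle covariate changed the calls in 1 of its 2 forms. With the muscle markers' log2 values averaged as a term of the model, which leaves 2 residual degrees of freedom, 15 of 36 members passed as higher with the drug, where 10.5% of all genes did. Ndufa10 led at 0.84 on the log2 scale with an SE of 0.075 (adjusted p = 0.0132 by limma), then Ndufb6 with 0.69 (SE 0.075, adjusted p = 0.0163) and Ndufv1 with 0.83 (SE 0.093, adjusted p = 0.0165). In this form the members' median log2 fold change was 0.36, against 0.074 over all genes. With the summed FPKM of the markers as the covariate, 0 of 36 passed, where 276 of 13527 genes did in either direction. The members' median log2 fold change was then 0.039, against 0.058 over all genes. Both libraries with few muscle transcripts are untreated, and no treated library had so few.

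The mitochondrially encoded subunits and the assembly factors did not pass the test either. The 7 mitochondrial transcripts measured 3789 to 8291 FPKM in untreated 13 and 2481 to 6695 FPKM in untreated 14, and their log2 fold changes lay between -0.10 and -0.021, all 7 negative. mt-Nd5 and mt-Nd6 lie on opposite strands, and no source used here states strand-aware counting, so their reads may be shared. Of 16 assembly factors, 12 had higher and 4 lower means. Foxred1 had 0.32 (SE 0.69) and Ndufaf6 -0.11 (SE 0.13), both with limma adjusted p = 1. Foxred1 measured 92.9, 22.7 and 88.8 FPKM untreated and 67.8 and 76.0 FPKM treated, so its level in untreated 14 fell by 1.98 on the log2 scale from the other untreated libraries. Ndufaf6 was the only one of the 16 with both treated values, 18.4 and 19.2 FPKM, below the untreated 19.9, 19.9 and 21.2 FPKM, an arrangement that 3.18% of all genes had.

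Other complexes of the chain and the regulators of mitochondrial genes gave 0 calls as well. In complex II, Sdha had 0.20 (SE 0.43) and Sdhc 0.091 (SE 0.27). In complex III, Cyc1 had 0.19 (SE 0.43) and Uqcrh -0.0030 (SE 0.34), and in complex IV Cox6a1 had 0.56 (SE 0.85) and Cox7c -0.053 (SE 0.22). Cox6a1 was further reduced in untreated 14 than any complex I member, with 1293, 263 and 1494 FPKM untreated. Among ATP synthase genes, Atp5g1 had 1.703 (SE 1.95), with 12.5, 529.5 and 9.08 FPKM untreated and 191 and 89.8 FPKM treated, and Atp5j -0.16 (SE 0.39). Among the transcriptional regulators, the coactivator gene Ppargc1b had 0.55 (SE 0.86) and Ppargc1a -0.37 (SE 0.18). Ppargc1b measured 28.2, 4.78 and 29.3 FPKM untreated and 20.7 and 27.1 FPKM treated, lowest in untreated 14 like most subunits. Of the 10 regulators, 5 were lowest in untreated 14, as were 43.6% of all genes, and 2 were highest there. Their median log2 difference from untreated 13 and 15 in untreated 14 was -0.17. Nrf1 was also lowest there, though by little, and measured 5.48, 5.23 and 5.53 FPKM untreated and 6.50 and 6.98 FPKM treated. Nrf1 had a log2 fold change of 0.29 (SE 0.13). For all genes named here the adjusted p by limma was 1.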

How the data were processed

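Total RNA of whole brown adipose tissue was sequenced from 6 samples, per the labels. The authors deposited FPKM values per Ensembl gene, per the file headers. Per the submitters' processing notes, CASAVA 1.7 and GRCm38 are named. How reads were aligned, quantified and annotated is not given in the sources used here. Symbols and coordinates came from GENCODE M21 (GRCm38), which held 44395 of the 45320 identifiers, and promoter sequences from RefSeq (GRCm38.p6).

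FPKM are not read counts and read totals were unknown. Depth relative to untreated 13 was estimated from the commonest ratio of values among genes above 0 and under 1 FPKM in both libraries. It was 0.810 (untreated 14), 0.880 (untreated 15), 1.01 (treated 17) and 0.959 (treated 33/35). The commonest ratio was shared by only 116 of 5747, 296 of 6417, 134 of 6389 and 173 of 6348 such genes, so these depths are rough. The mitochondrial share of the FPKM sum was 14.6% in untreated 14 and 17.4% to 21.2% elsewhere.

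Genes averaging 1 FPKM or more were tested on log2(FPKM + 0.5) with limma 3.58.1 in R 4.3.3 (eBayes, variance trend, residual df 3), two-sided, with Benjamini-Hochberg adjustment. The code was checked on simulated data. Counts and figures used Python 3.11.15.

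Members and lists were chosen with earlier results of these data known. Named were the nuclear core subunits on the list, the 3 highest and 3 lowest members by level, by fold change and by difference in untreated 14, and Ndufa4 and Ndufab1. From pathway lists the highest and lowest fold change were named. Ndufb4, its copy and those of other members, Nrf1 and the printed promoters were chosen after their values were seen, as was centring on brown adipocyte markers. Cox4i1, Coa1, Atp5pb and Ndufb1-ps matched no identifier and are not analysed here.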

Additional observations from a re-analysis of the deposited data

How the results depend on the processing

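The count of complex I genes past the threshold stayed at 0 of 36 under every alternative but the mean log2 muscle covariate, which gave 15. The count over all genes, 6, was less stable. It was 2 with a pseudocount of 0.1, 0 without a filter on low values, 1 with a mean of at least 5 FPKM, 1 when centred on adipocyte identity, 1914 and 276 with the mean log2 and summed FPKM muscle covariates, and 0 to 158 with 1 library left out, the 158 without untreated 14. Members with groups that did not overlap numbered 0 to 27 with 1 library left out, 27 without untreated 14, 3 without treated 17 and 1 without treated 33/35, where 45.6%, 32.0% and 19.5% of all genes did not overlap in either direction. The lone sample of an arm is then assumed to vary like the other group. The median log2 fold change of the members was -0.15 when centred on adipocyte identity, -0.33 when centred on brown adipocyte markers and -0.15 to 0.19 with 1 library left out. The members' median difference of untreated 14 from untreated 13 and 15 turned to 0.45 and 2.27 under those centrings. The median over all genes turned to 1.03 and 2.85. The causes were not tested.

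Named members changed sign as follows. Centred on adipocyte identity, log2 fold changes were Ndufa13 -0.19, Ndufa4 -0.12, Ndufab1 -0.027, Ndufb6 -0.058, Ndufb8 -0.021, Ndufb9 -0.16, Ndufs3 -0.10, Ndufs7 -0.15, Ndufs8 -0.091, Ndufv2 -0.17. Centred on brown adipocyte markers they were Ndufa10 -0.13, Ndufa13 -0.37, Ndufa4 -0.31, Ndufab1 -0.21, Ndufb6 -0.24, Ndufb8 -0.20, Ndufb9 -0.34, Ndufs1 -0.17, Ndufs3 -0.28, Ndufs7 -0.33, Ndufs8 -0.27, Ndufv1 -0.10, Ndufv2 -0.35. With the mean log2 muscle covariate they were Ndufa11 0.035, Ndufa5 0.035, Ndufs4 0.19. With 1 library left out, they ran for Ndufa10 from -0.17 to 0.50, Ndufa11 from -0.15 to 0.050, Ndufa13 from -0.038 to 0.085, Ndufa4 from -0.13 to 0.22, Ndufab1 from -0.15 to 0.38, Ndufb6 from -0.26 to 0.36, Ndufb8 from -0.16 to 0.41, Ndufb9 from -0.14 to 0.17, Ndufs1 from -0.13 to 0.43, Ndufs3 from -0.15 to 0.25, Ndufs4 from -0.24 to 0.052, Ndufs7 from -0.076 to 0.16, Ndufs8 from -0.25 to 0.33, Ndufv1 from -0.12 to 0.53, Ndufv2 from -0.21 to 0.17. Pseudocount, filter, variance model, quantile normalization, rescaling without mitochondrial genes, the summed FPKM covariate and the identical tables counted as 2 changed the sign of 0 of 17 named members. No paired analysis was possible because the groups share no replicate number. Without read totals, no counting error could be given.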
